A study of Mus musculus with 6 samples.

Results

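The mouse Ifi200 genes and Aim2, which together make up the PYHIN gene family, were examined in RNA from splenic CD8+ T cells. The members were taken by symbol: Ifi203, Ifi204, Ifi206, Ifi207, Ifi208, Ifi209, Ifi213, Ifi214, Mndal and Aim2. All 10 were found among the 28773 genes listed. The study asked how inhibition of glycolysis after tumor ablation changed CD8+ T cells. Spleens were taken on day 35 from mice whose primary tumor had been treated by microwave ablation (MWA), and CD8+ T cells were isolated for bulk sequencing of poly(A) RNA. The MWA+PBS group (samples 1 to 3) received the vehicle, and the MWA+2DG group (samples 4 to 6) received 2-deoxy-D-glucose (2DG), a glucose analogue that inhibits hexokinase and phosphoglucose isomerase, so every sample came from an ablated mouse. The labels name the tissue, cell, treatment and day but no strain, age or genotype. The methods of the study describe 4T1 mammary tumors in female BALB/c mice and other tumors in female C57BL/6 mice. They do not name the model behind these samples. They also describe intraperitoneal 2DG that ended before the spleens were taken, and a kit for CD8+ T cell isolation. No source says whether the samples came from separate mice, so the spread between samples may be partly technical.

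PYHIN proteins carry a pyrin domain, which binds other pyrin domains, a HIN domain, which binds double-stranded DNA, or both. Aim2 senses DNA in the cytosol and recruits the adaptor Pycard (ASC) into an inflammasome that activates Casp1, whereas several Ifi200 proteins act in the nucleus or in DNA sensing through STING. The genes lie side by side on chromosome 1, most are induced by interferon, and the content of the cluster is known to differ between mouse strains.

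The stretch before the transcription start is shown because an interferon-stimulated response element (ISRE) lies there in most members and because the members that carry it did not all change in the same direction. The ISRE core searched was GAAA, any 2 bases and GAAA, and the core of the interferon gamma activated site (GAS) was TTC, any 3 bases and GAA, each on both strands of the 250 bases before each start. The sequences are from RefSeq (GRCm38.p6, strain C57BL/6J), which gave 11 promoters for 9 of the 10 members and none for Ifi204. The ISRE core was present in 7 members, against 2.98% of all 32851 promoters. The GAS core was present in 0 members, against 7.02% of all promoters. All 7 members held the core in the form GAAATCGAAA, which 13 promoters held in all (0.0396%), and the other start of Mndal had 1 more match in another form. That exact form was singled out after the sequences had been read, and copies of 1 gene family are not independent occurrences. Windows of 60 bases around it follow, 5′ to 3′ on the strand of the gene, with the ISRE in capitals.
Ifi206: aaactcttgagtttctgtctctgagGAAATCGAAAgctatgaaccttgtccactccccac
Ifi208 and Ifi213: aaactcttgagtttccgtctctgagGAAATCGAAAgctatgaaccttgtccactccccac
Ifi214: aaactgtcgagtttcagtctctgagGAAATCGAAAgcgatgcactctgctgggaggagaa
Ifi209: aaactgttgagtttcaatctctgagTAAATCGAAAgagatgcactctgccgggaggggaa
Ifi207: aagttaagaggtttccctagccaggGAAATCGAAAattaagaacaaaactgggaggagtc
Mndal and Ifi203: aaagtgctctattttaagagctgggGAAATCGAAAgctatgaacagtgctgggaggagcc

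The windows lie at chr1:173491324-173491383 (Ifi206, minus strand), chr1:173536002-173536061 (Ifi214, minus), chr1:173599311-173599370 (Ifi213, minus), chr1:173630755-173630814 (Ifi209, plus), chr1:173673582-173673641 (Ifi208, plus), chr1:173741816-173741875 (Ifi207, minus), chr1:173880189-173880248 (Mndal, minus) and chr1:173942493-173942552 (Ifi203, minus). The Ifi209 window had the substitution G1T, counted from the first base of the ISRE, and so did not match the core. Windows of Ifi208 and Ifi213 were 100% identical, as were those of Ifi203 and Mndal, and Ifi206 differed from Ifi208 at 1 of 60 bases (98.3% identical). Ifi209 and Ifi214 shared 90.0% of the window. Ifi207 had the same ISRE but was only 46.7% to 65.0% identical to the windows of the other members shown. Aim2 held neither core in its 250 bases.

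**Figure D1:**
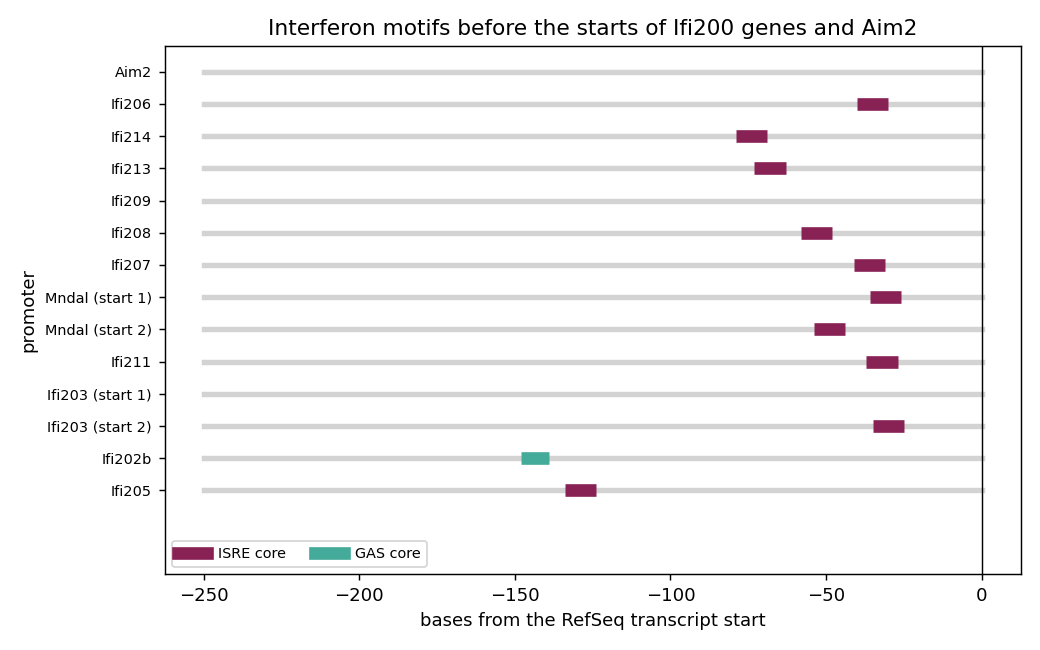
Matches to the ISRE core and the GAS core in the 250 bases before each RefSeq start (horizontal axis, bases from the start), with 1 line per promoter of the members and of Ifi211, Ifi202b and Ifi205. The ISRE starts 35 bases before the start in Ifi203, 36 in Mndal, 40 in Ifi206, 41 in Ifi207, 58 in Ifi208, 73 in Ifi213 and 79 in Ifi214. Aim2, Ifi209 and the other start of Ifi203 have no match. For Ifi206, Ifi207, Ifi208 and Ifi209 the bases after the RefSeq start were not found in any transcript of another annotation (GENCODE M21), so these distances are uncertain.

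Values are FPKM, which correct fragment numbers for transcript length and library size, so that levels of different genes can be compared. Totals were 291803 to 313257 FPKM per sample, 22414 to 23340 genes were above 0, and the read depth behind a value is unknown. Markers of T cells were present throughout: Cd8a was 226 to 239 FPKM in MWA+PBS, against 359 to 377 in MWA+2DG. The libraries also held RNA with markers of other cells, and these moved with the groups. The 20 monocyte and macrophage markers summed to 1186 to 1259 FPKM in MWA+PBS, against 358 to 395 in MWA+2DG (18 of 19 tested lower, and Lyz2 higher). The 15 neutrophil markers summed to 77.5 to 102 and 1638 to 1820 (14 of 15 higher), the 15 B cell markers to 98.0 to 115 and 175 to 182 (12 of 14 higher, a ratio of the sums of 1.63, or 3.25 without Cd74), and the 17 T lineage markers to 2042 to 2174 and 2879 to 3087 (16 of 17 higher). Erythroid markers summed to 323 to 380 and 86.0 to 102 (11 of 11 lower) and plasma cell markers to 1713 to 1905 and 741 to 828 (5 of 7 lower). In these lists 0 markers were below 0.1 FPKM in all samples. The part of these cells in the results below was not tested, and ratios to markers given below are descriptions only. In bulk RNA fewer cells of a type and less RNA per cell cannot be told apart.

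Most of the family was higher in MWA+2DG. On the log2(FPKM + 1) scale with limma, 9 members had a mean FPKM of at least 1 and were tested. Of these, with Benjamini-Hochberg adjusted p-values over all 12444 genes tested and a threshold of 0.05, 7 were higher (Ifi204, Ifi206, Ifi208, Ifi209, Ifi214, Mndal and Aim2), 1 was lower (Ifi207) and 1 passed in neither direction (Ifi203). Of all genes tested, 22.3% were higher and 17.1% lower, 39.4% in either direction. When the samples were scaled to the T lineage markers instead, 3 members were higher (Ifi206, Ifi208 and Ifi214) and 2 lower (Ifi203 and Ifi207), against 4.61% and 63.5% of all genes. That scaling moved the median log2 fold change of all genes from 0.05 to -0.34, a shift of -0.39. The median of the 9 members was 0.43 as deposited and -0.03 on the T lineage scale, above the median of all genes on both. By the rule of the study, an unadjusted p under 0.05 together with a log2 fold change over 0.25 in size, 7 members were again higher and 1 lower, against 21.6% and 16.6% of all genes. Counting all 10 members, the groups did not overlap for 8 that were higher and 1 that was lower, against 30.2% and 21.9% of the genes tested.

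**Figure D2:**
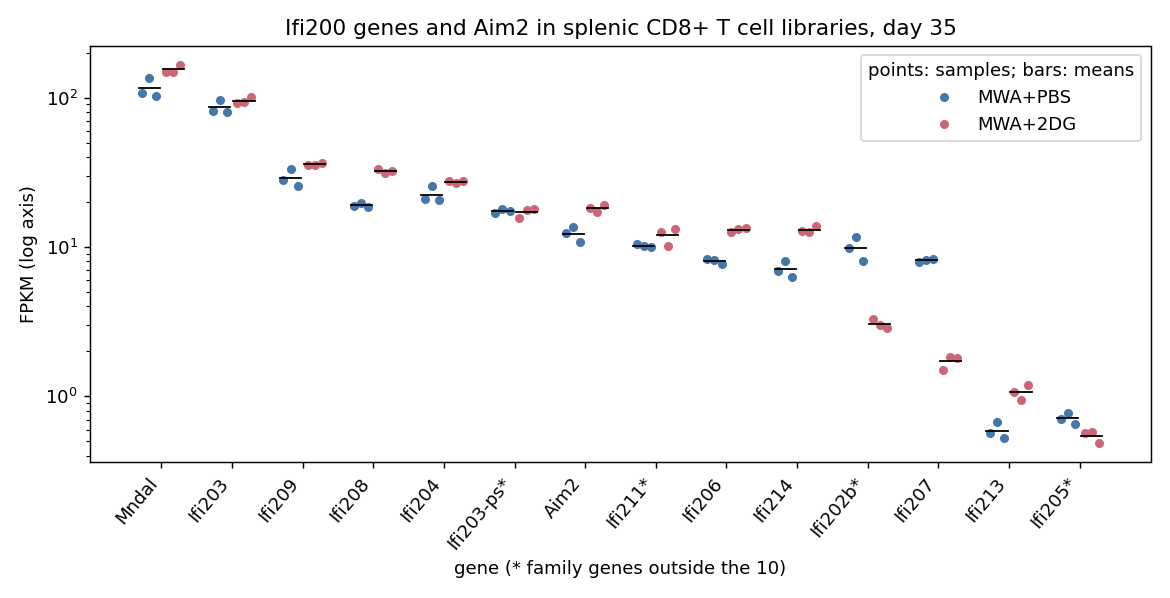
FPKM (log axis) of the 10 members and 4 related genes (marked *) in each of the 6 samples, with bars at the group means, ordered by level. Mndal and Ifi203 are the most abundant, Ifi207 and Ifi202b drop to under 4 FPKM in all MWA+2DG samples, and the groups of Ifi203 overlap.

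Aim2 (ENSMUSG00000037860), the inflammasome-forming DNA sensor, was 12.3, 13.7 and 10.8 FPKM in MWA+PBS and 18.3, 17.1 and 19.0 in MWA+2DG. The lowest MWA+2DG sample was above the highest MWA+PBS sample. Its mean rose from 12.3 ± 1.43 to 18.1 ± 0.955 FPKM (SD, n = 3 each), a log2 fold change of 0.53 ± 0.09 (SE, 95% interval 0.33 to 0.73, limma adjusted p = 0.00256). Of the genes tested, 92.5% had a lower fold change. It was called in all 6 fits that left out 1 sample (adjusted p up to 0.0121). The call was lost on the T lineage scale, where the log2 fold change was 0.10 (adjusted p = 0.262).

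Mndal (ENSMUSG00000090272), a nuclear HIN protein related to the human myeloid nuclear differentiation antigen, was the most abundant member. It was 108, 135 and 103 FPKM in MWA+PBS and 148, 149 and 166 in MWA+2DG, so that 1 MWA+PBS sample lay close below the other group. The mean was 115 ± 17.2 against 154 ± 9.85 FPKM and the log2 fold change 0.43 ± 0.11 (adjusted p = 0.0154), which turned to -0.03 on the T lineage scale (adjusted p = 0.785). Without MWA+PBS 1 or without MWA+2DG 6 the adjusted p was 0.0559 and 0.0536, above the threshold.

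Ifi203 (ENSMUSG00000039997), a nuclear HIN protein, was the second most abundant. It was 81.3, 95.8 and 80.7 FPKM in MWA+PBS and 91.9, 93.9 and 100.5 in MWA+2DG, and the groups overlapped because MWA+PBS 2 exceeded 2 of the MWA+2DG samples. The log2 fold change of 0.15 ± 0.08 had an interval from -0.03 to 0.34 (adjusted p = 0.161), and on the T lineage scale it was -0.30 (adjusted p = 0.0074). It passed the threshold as higher without MWA+PBS 2 (adjusted p = 0.0174) and with samples weighted by arrayWeights (0.21, adjusted p = 0.022). The ratio of Mndal to Ifi203 within a sample was 1.28 to 1.41 in MWA+PBS, against 1.59 to 1.65 in MWA+2DG, without overlap. Both genes have identical windows around the ISRE, and their annotated exons overlap by 37 bases on the same strand.

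Ifi204 (ENSMUSG00000073489), a DNA sensor that signals through STING, and Ifi209 (ENSMUSG00000043263) were at intermediate levels and differed little. Ifi204 was 21.0, 25.5 and 20.5 FPKM in MWA+PBS and 27.5, 27.0 and 27.6 in MWA+2DG. Ifi209 was 28.1, 33.5 and 25.5 FPKM in MWA+PBS and 35.3, 35.5 and 36.7 in MWA+2DG. In both, MWA+PBS 2 came close to the other group and the MWA+2DG samples lay close together. The log2 fold changes were 0.29 ± 0.08 (adjusted p = 0.0298) for Ifi204 and 0.30 ± 0.09 (adjusted p = 0.0379) for Ifi209, and both turned negative on the T lineage scale, to -0.16 and -0.15. Leaving out any sample but MWA+PBS 2 ended both calls, with adjusted p up to 0.0992 and 0.105.

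Larger differences were found in Ifi206, Ifi208 and Ifi214, which lie together in the part of the cluster next to Aim2 and are less studied. Ifi208 (ENSMUSG00000066677) was 18.8, 19.7 and 18.7 FPKM in MWA+PBS and 33.5, 31.3 and 32.0 in MWA+2DG. Ifi206 (ENSMUSG00000037849) was 8.35, 8.17 and 7.67 FPKM in MWA+PBS and 12.6, 13.2 and 13.4 in MWA+2DG. Ifi214 (ENSMUSG00000070501) was 6.93, 8.03 and 6.28 FPKM in MWA+PBS and 12.7, 12.7 and 13.8 in MWA+2DG. In each of the 3 genes the gap between the groups was wider than the range within either group. The log2 fold changes were 0.73 ± 0.05 for Ifi208 (adjusted p = 5.00e-05), 0.64 ± 0.06 for Ifi206 (adjusted p = 0.000153) and 0.80 ± 0.09 for Ifi214 (adjusted p = 0.000367). Between 95.1% (Ifi206) and 97.5% (Ifi214) of the genes tested had a lower fold change. On the T lineage scale all 3 were higher, by 0.29, 0.21 and 0.39, and at an adjusted p under 0.05 they were called under each of the 14 other ways of fitting, although none of the 3 exceeded 1 in size.

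Ifi213 (ENSMUSG00000073491), which stands between Ifi214 and Ifi209, was the member of the lowest level. It was 0.57, 0.67 and 0.53 FPKM in MWA+PBS and 1.07, 0.95 and 1.20 in MWA+2DG. The groups did not overlap, but its mean of 0.832 over the 6 samples kept it out of the test. With no filter on low values its log2 fold change was 0.38 (adjusted p = 0.0359), on a scale that understates changes of low genes. Its window around the ISRE is the same as that of Ifi208, whereas its level in MWA+PBS was 0.59 ± 0.0721 FPKM against 19.1 ± 0.591 for Ifi208.

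Ifi207 (ENSMUSG00000073490), a pyrin and HIN domain protein with a long repeat region, was the member that went the other way. It was 7.94, 8.15 and 8.35 FPKM in MWA+PBS and 1.51, 1.83 and 1.82 in MWA+2DG. The samples of each group lay close together and the groups were far apart. The mean fell from 8.15 ± 0.205 to 1.72 ± 0.182 FPKM, 4.74-fold, with a log2 fold change of -1.75 ± 0.07 (95% interval -1.93 to -1.58, adjusted p = 4.54e-06). Only 1.06% of the genes tested had a lower fold change. On the T lineage scale it was -2.10, and it was called lower in each of the 13 alternatives that tested it. In the same samples Ifi204, the next gene in the cluster, was slightly higher as deposited (0.29, or -0.16 on the T lineage scale), and the ratio of Ifi207 to Ifi204 lay between 0.319 and 0.408 in MWA+PBS, against 0.0549 to 0.0679 in MWA+2DG.

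Monocyte and macrophage markers fell in the same samples as Ifi207. Their sum was 3.18-fold lower in MWA+2DG, but 1 marker set much of it. Lyz2, a lysozyme gene that neutrophils also express, was the marker called higher and made up 58.7% to 60.9% of the sum in MWA+2DG, and without it the sum was 6.78-fold lower. Adgre1 (F4/80), a macrophage receptor, was 31.3, 31.7 and 31.1 FPKM in MWA+PBS and 4.37, 4.64 and 4.80 in MWA+2DG. Per 1000 FPKM of the macrophage sum, Ifi207 was 6.31, 6.87 and 7.03 FPKM in MWA+PBS and 3.89, 5.11 and 4.61 in MWA+2DG. The ratio of the group means was 0.673 and the groups did not overlap. Without Lyz2 in the sum, the values were 7.29, 8.13 and 8.12 in MWA+PBS and 9.58, 12.4 and 11.8 in MWA+2DG, a ratio of 1.43 in the other direction. Whether Ifi207 was lower or higher per FPKM of the marker sum therefore depended on Lyz2. Relative to single macrophage markers the ratio was 1.44 for Adgre1, 1.35 for Csf1r and 1.37 for C1qa. The other markers of the list were not compared singly, so this direction holds for these markers only. Ifi202b, a family gene outside the 10 whose protein has HIN domains without a pyrin domain and binds DNA, moved alike. It was 9.84, 11.7 and 8.04 FPKM in MWA+PBS and 3.28, 3.03 and 2.88 in MWA+2DG (log2 fold change -1.41 ± 0.12, adjusted p = 0.00012). Per 1000 FPKM of the macrophage sum Ifi202b was 7.82, 9.86 and 6.77 in MWA+PBS and 8.44, 8.46 and 7.30 in MWA+2DG, where the groups overlapped and the ratio was 0.99. Without Lyz2 in the sum that ratio was 2.10, with no overlap. Dendritic cell markers without Bst2, which also belongs to the interferon-induced genes, summed to 19.7 to 22.6 FPKM in MWA+PBS, against 12.1 to 13.0 in MWA+2DG. Of 4 tested with Bst2, 3 were called lower, and their part in the result for Ifi207 was not tested.

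**Figure D3:**
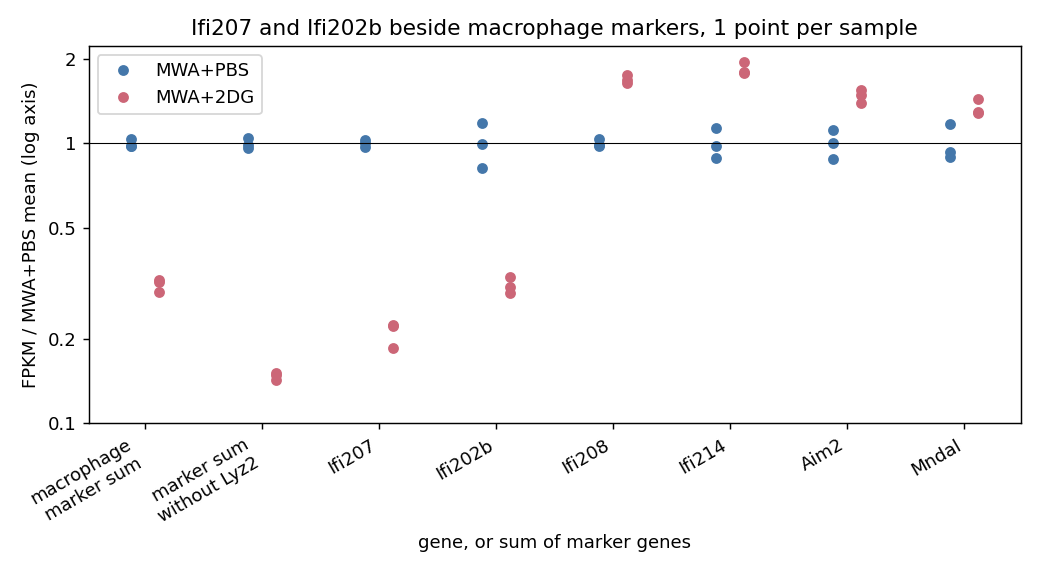
FPKM of each sample divided by the MWA+PBS mean (log axis) for the sum of 20 monocyte and macrophage markers, the same sum without Lyz2, for Ifi207 and Ifi202b, and for Ifi208, Ifi214, Aim2 and Mndal. The MWA+2DG samples of Ifi207 lie below the sum of all 20 markers and above the sum without Lyz2, those of Ifi202b lie at the level of the sum of all 20 and above the other sum, and those of the other 4 genes lie above 1, where Mndal differs by -0.03 (log2) once scaled to T lineage markers.

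Besides the members, 4 Ifi200 genes were listed, and 3 of these were tested, with 1 called lower (Ifi202b) and 0 higher by limma (1 and 0 at an unadjusted p under 0.05). Of all genes tested, 17.1% were called lower and 22.3% higher. Ifi211 was 10.5, 10.1 and 10.1 FPKM in MWA+PBS and 12.7, 10.1 and 13.2 in MWA+2DG, with overlapping groups (log2 fold change 0.20, adjusted p = 0.127, and -0.22 on the T lineage scale). The pseudogene Ifi203-ps was 16.8, 18.1 and 17.5 FPKM in MWA+PBS and 15.7, 17.8 and 18.0 in MWA+2DG (log2 fold change -0.02, adjusted p = 0.806, and -0.46 on the T lineage scale). Ifi205, which codes for a nuclear HIN protein, was 0.71, 0.78 and 0.65 FPKM in MWA+PBS and 0.57, 0.58 and 0.49 in MWA+2DG and was not tested. Ifi211 and Ifi203-ps thus did not pass the test as deposited, but both were called lower on the T lineage scale (adjusted p = 0.0431 and 0.00119). On that scale 63.5% of all genes tested were called lower.

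In the order of the RefSeq annotation, 16 genes run from Aim2 to Ifi203: Aim2, a tRNA gene, Ifi206, Ifi214, Ifi213, Ifi209, Ifi208, the pseudogenes Gm18752 and Gm7871, Ifi207, Ifi204, Ifi203-ps, Mndal, the pseudogene Gm21031, Ifi211 and Ifi203. The 4 members next to Aim2 that were tested (Ifi206, Ifi214, Ifi209 and Ifi208) were all called higher as deposited, as were 22.3% of all genes tested, with Ifi209 at -0.15 on the T lineage scale. Between Ifi208 and Ifi207, Gm18752 had means of 1.78 and 2.65 FPKM (log2 fold change 0.39, adjusted p = 0.0222). Of the 12 genes tested in this stretch, 8 were called higher as deposited, and Ifi207 was the only one called lower (22.3% and 17.1% of all genes). On the T lineage scale, where 63.5% of all genes were called lower, Ifi203, Ifi203-ps and Ifi211 were called lower as well.

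**Figure D4:**
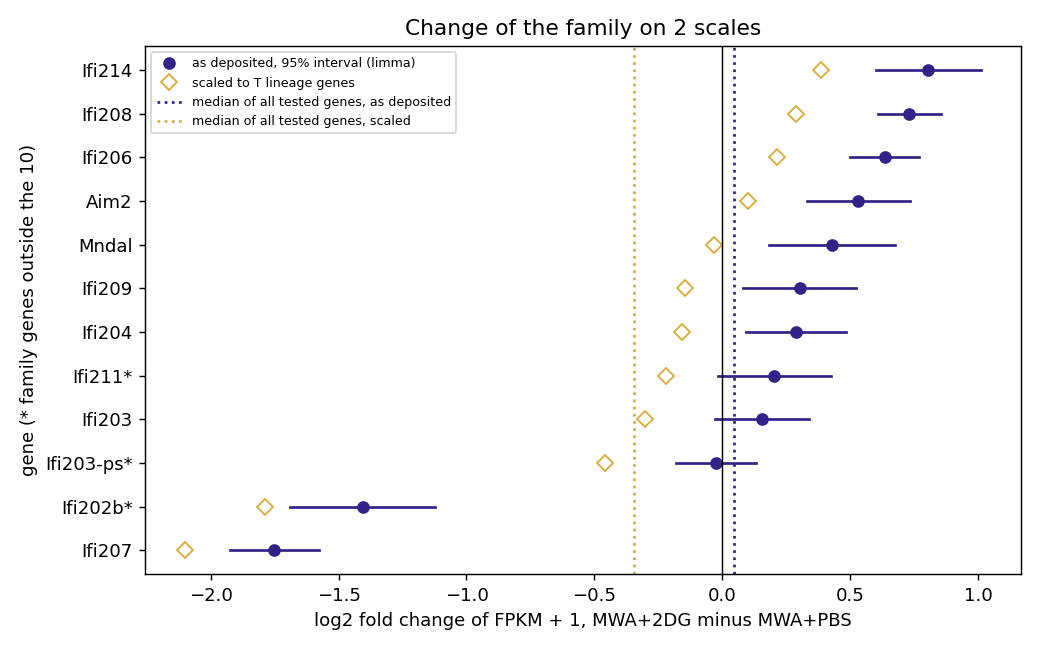
Log2 fold change of each tested family gene (horizontal axis, MWA+2DG minus MWA+PBS, on log2(FPKM + 1)) as deposited with its 95% limma interval (filled) and after scaling to T lineage markers (open), with dotted lines at the medians of all genes tested, 0.05 and -0.34. Ifi206, Ifi208, Ifi214 and Aim2 are above 0 on both scales, Ifi207 and Ifi202b are below 0 on both, and Ifi203, Ifi204, Ifi209, Mndal and Ifi211 change sign.

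The members were also read as a sum, although reads that members share with Ifi211 or Ifi203-ps could still move it. The 10 members summed to 293, 348 and 282 FPKM in MWA+PBS and 382, 383 and 412 in MWA+2DG. The groups did not overlap, and the means were 308 ± 35.5 and 392 ± 16.8 FPKM, a ratio of 1.27, or 1.24 without Mndal. Scaled to T lineage markers the ratio was 0.926, so the direction of the sum turned. Mndal held 36.5% to 38.7% of the sum in MWA+PBS, against 38.7% to 40.2% in MWA+2DG. Ifi203 held 27.5% to 28.6% and 24.0% to 24.5%, Ifi208 5.67% to 6.62% and 7.78% to 8.77%, and Ifi207 2.34% to 2.96% and 0.395% to 0.478%. These shares and the ratios within a sample do not depend on the scaling between samples, and the groups did not overlap for the shares of Ifi203, Ifi208 or Ifi207.

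Within each group 1 sample was often the highest. MWA+PBS 2 was the highest of its group for 8 of the 10 members, all but Ifi206 and Ifi207, and MWA+PBS 3 was the lowest for 9. MWA+2DG 6 was the highest of its group for 8 of the 10, all but Ifi207 and Ifi208. MWA+2DG 4 and MWA+2DG 5 were each the lowest for 5. This order was not counted over all genes, so it is not shown to be particular to the family. MWA+PBS 2 also had the highest total FPKM of its group (313257), but MWA+2DG 6 had the lowest of its group (291803). The ratio of Ifi214 to Ifi209 was 0.240 to 0.247 in MWA+PBS, against 0.357 to 0.378 in MWA+2DG. The ratio of Ifi208 to Ifi204 was 0.773 to 0.911 in MWA+PBS, against 1.16 to 1.22 in MWA+2DG.

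Similar copies can share reads, and the share of each transcript that also occurs in another family gene was measured in windows of 100 bases from the GENCODE M21 annotation. It was 0% for Aim2 and Ifi202b and 0.263% for Ifi207. For the other members it was 2.84% in Ifi203, 3.30% in Ifi213, 5.89% in Mndal, 5.92% in Ifi208, 7.29% in Ifi214, 7.74% in Ifi206, 10.7% in Ifi204 and 16.9% in Ifi209, whose shared windows were all with Ifi214. Ifi211 shared 56.9%, so its level is uncertain. The gene with the largest difference, Ifi207, and Aim2 were thus the members with the fewest shared windows.

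Of 16 measured genes of the inflammasome, in which Aim2 acts, 12 were tested, 3 were called higher and 5 lower (22.3% and 17.1% of all genes), with a median log2 fold change of -0.04 against 0.05 for all genes. The adaptor Pycard was 2.20, 2.07 and 2.66 FPKM in MWA+PBS and 2.80, 1.99 and 2.44 in MWA+2DG (log2 fold change 0.04, adjusted p = 0.812). The protease Casp1 was 4.34, 5.71 and 3.93 FPKM in MWA+PBS and 5.10, 4.67 and 5.70 in MWA+2DG (log2 fold change 0.13, adjusted p = 0.438). In both the groups overlapped. Gsdmd, the pore-forming substrate of Casp1, was 16.6, 19.6 and 14.9 FPKM in MWA+PBS and 25.2, 21.6 and 24.6 in MWA+2DG (log2 fold change 0.46, adjusted p = 0.0108). The other genes called higher were Casp8 (0.28), an initiator caspase, and Nek7 (0.27), which binds Nlrp3. On the T lineage scale, where 63.5% of all genes were called lower, 8 genes of the list were, and those called higher as deposited lost that call. Il18, a cytokine cut by Casp1, fell from 11.1, 12.7 and 11.0 FPKM to 2.46, 3.25 and 1.86 (log2 fold change -1.85, adjusted p = 6.3e-05), and Il1b, the other such cytokine, had a log2 fold change of -0.46. Ninj1, which ruptures the membrane of dying cells, had a log2 fold change of -1.14, the pyrin gene Mefv -0.95 and the inhibitor Il18bp -0.37. These falls went with the macrophage markers, whose part in them was not tested.

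Of the 22 genes of cytosolic DNA sensing, all tested, 8 were higher and 1 lower, a share of higher calls to be read against 22.3% of all genes. The median was 0.16, and on the T lineage scale 2 were higher and 14 lower (4.61% and 63.5% of all genes). The median on that scale was -0.28, against -0.34 for all genes. Cgas, the other main DNA sensor of the cytosol, was 4.62, 5.08 and 3.94 FPKM in MWA+PBS and 3.94, 3.81 and 3.07 in MWA+2DG (log2 fold change -0.27, adjusted p = 0.088). STING (Tmem173), which responds to the product of Cgas, was 31.2, 33.1 and 30.6 FPKM and 38.2, 32.3 and 36.3 FPKM (log2 fold change 0.16, adjusted p = 0.11). Neither passed the test, and both had overlapping groups. Zbp1, a sensor of Z-form nucleic acids that is itself induced by interferon, was 21.6, 22.3 and 20.04 FPKM in MWA+PBS and 37.3, 32.5 and 37.4 in MWA+2DG (log2 fold change 0.72, adjusted p = 0.000254). Irf7, the transcription factor of the late interferon response, had a log2 fold change of 0.85, the kinases Tbk1 and Ikbke 0.36 and 0.31, and Irf3 0.37. Xrcc5 (Ku80, DNA end binding) was at 0.44, Samhd1, which breaks down nucleotides, at 0.24 and the RNA editor Adar at 0.23. Dnase2a, the lysosomal nuclease that digests engulfed DNA, was the gene called lower (-0.70).

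Of 18 interferon receptor and signalling genes, 8 were higher and 4 lower (22.3% and 17.1% of all genes), with a median of 0.16. On the T lineage scale 2 were higher and 11 lower (4.61% and 63.5% of all genes), with a median of -0.27. The type I receptor chain Ifnar1 rose (0.50), while the other chain, Ifnar2, did not pass the test (-0.08, limma adjusted p = 0.254). Both chains of the interferon gamma receptor, Ifngr1 (-0.21) and Ifngr2 (-0.51), were lower. Ifng itself was 1.96, 2.72 and 1.92 FPKM in MWA+PBS and 2.68, 1.43 and 2.31 in MWA+2DG, with overlapping groups (log2 fold change -0.04, adjusted p = 0.875). The feedback genes Usp18 (0.67), Ptpn2 (0.56) and Socs1 (0.39) were higher, as were Irf9 (0.30), Irf1 (0.30) and the kinase Jak1 (0.22). Irf8, a factor of myeloid and B cells, fell by 1.10 on the log2 scale and Socs3 by 0.33.

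Most of the other interferon-induced genes were higher as deposited. Of 21 tested with limma, 18 were called higher and 0 lower (19 and 1 at an unadjusted p under 0.05), at a median of 0.63, against 22.3% and 17.1% of all genes. After scaling to T lineage markers 9 were higher and 1 lower with a median of 0.18 (4.61% and 63.5% of all genes). Iigp1, an immunity-related GTPase, was 4.81, 5.45 and 5.19 FPKM in MWA+PBS and 13.8, 13.3 and 13.8 in MWA+2DG (log2 fold change 1.25, adjusted p = 8e-06). Ifit3, an antiviral effector, was 5.75, 6.74 and 6.21 FPKM in MWA+PBS and 16.1, 15.6 and 15.8 in MWA+2DG (log2 fold change 1.22, adjusted p = 1.2e-05). Both changed more than any of the members that rose, of which Ifi214 had the highest fold change, 0.80. The 3 that did not pass were Rsad2 (0.06), Bst2 (0.25) and Ifi44 (-0.20). Ifi207 (-1.75) and Ifi202b (-1.41) lay outside the range of this list.

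**Figure D5:**
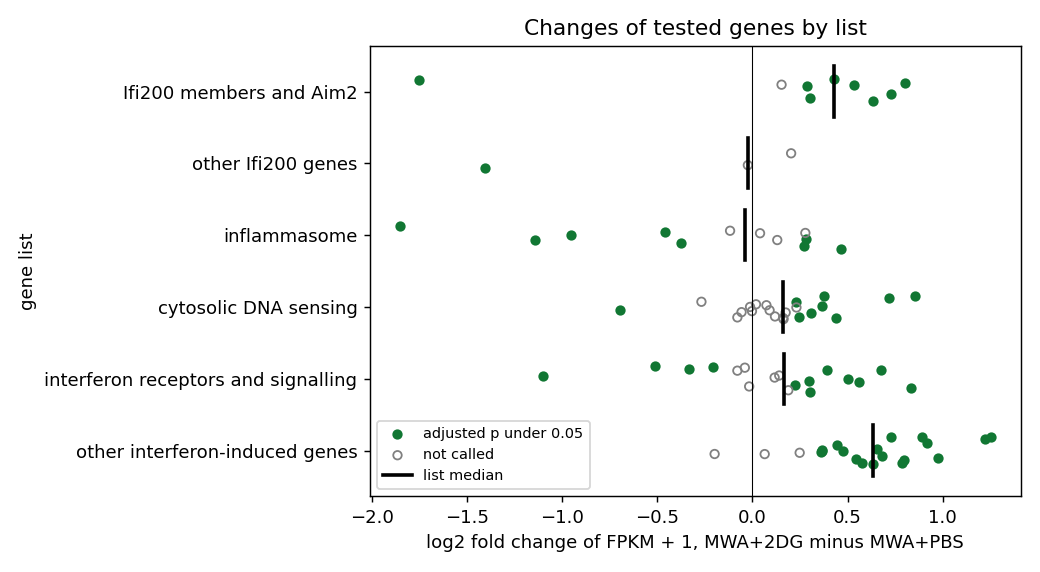
Log2 fold change (horizontal axis, MWA+2DG minus MWA+PBS, as deposited) of each tested gene of the 10 members and of 5 gene lists, with filled points for an adjusted p under 0.05 and a bar at the list median. The medians are 0.43 for the members, -0.02 for the other Ifi200 genes, -0.04 for the inflammasome, 0.16 for cytosolic DNA sensing, 0.16 for interferon receptors and signalling and 0.63 for other interferon-induced genes. On the T lineage scale they are, in the same order, -0.03, -0.46, -0.34, -0.28, -0.27 and 0.18, against -0.34 for all genes tested.

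The genes most like the family across the 6 samples were found by Pearson's r to the mean log2(FPKM + 1) of the 9 tested members, among 7305 genes with a mean FPKM of at least 5. They were Ddx20 (r = 0.996), an RNA helicase of the SMN complex, Ncf4 (0.996), a subunit of the phagocyte oxidase, the zinc finger gene Zfp605 (0.995), the predicted gene Gm21811 (0.995) and Atp1b3 (0.995), a subunit of the sodium pump. Ddx20 was 5.36, 6.88 and 5.02 FPKM in MWA+PBS and 7.50, 7.53 and 8.64 in MWA+2DG. These r values describe 6 points that share the contrast between the groups and the scaling of each library. The mean profile includes Ifi207, which fell while most members rose, so its group difference is smaller than it would be without Ifi207.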

How the data were processed

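Poly(A) RNA of 6 samples of splenic CD8+ T cells was sequenced, 3 per group, and groups came from the GEO labels. The deposited FPKM values were computed by the authors with HISAT2 and StringTie. The processing notes of the submitters name HISAT2 2.0.4, StringTie 1.3.4d, cutadapt 1.9, UMI-tools and genome build mm9, while the methods of the study name fastp, and the annotation was not given in the sources used. All but 84 gene IDs match an annotation of a later build (GENCODE M21), so the build behind the values is uncertain. FPKM is relative to the total of a library and keeps no read counts. A scan for steps of whole reads was too weak to recover them, so the depth is unknown, and neither counting intervals nor a count-based comparison of replicates could be made.

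Symbols were found for 28689 of 28773 gene IDs. Genes with a mean FPKM of at least 1 were tested on log2(FPKM + 1) with limma 3.58.1 in R 4.3.3 (lmFit, eBayes with a trend, either direction), MWA+2DG minus MWA+PBS, without covariates. The scale understates changes of low genes. The fit was tested on simulated data before use. P-values were adjusted over the 12444 genes tested. The genes named are the 10 members, their neighbours in the cluster, genes of the written lists, the 5 genes of highest r and, after the sequences had been read, 6 further genes whose promoter holds the same element. Members and lists were chosen with earlier results of these data known. No list was tested as a set, and 1 listed gene is not reported here.

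Alternatives were scaling to the geometric mean of 17 T lineage markers, to median ratios or by quantiles, a pseudocount of 0.1, no filter or a minimum mean FPKM of 5, limma without its trend or with arrayWeights, a log2 fold change over 1 in size, and 1 sample left out at a time. Marker sums without Lyz2 or Bst2 and a fit with the column number as a replicate block were added after the data were seen. Promoter letters and gene order came from RefSeq tables on GRCm38.p6, which is not the build the labels name, so no position is linked to reads. Proteins were not compared, since no protein table was used here.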

Additional observations from a re-analysis of the deposited data

How the results depend on the processing

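The GEO titles number the samples 1 to 3 and 4 to 6, while the deposited columns are numbered 1 to 3 in each group. With that column number as a replicate block, added after the data were seen, 3953 genes and 6 members were called, and Ifi204 and Ifi209 were lost (adjusted p = 0.0563 and 0.0627). Deviations from the group means of samples with the same number had r of 0.0321, -0.177 and -0.114 across genes. Pairs of different number had r from -0.0602 to 0.166. With 3 samples per group these values cannot show whether samples of the same number shared more than the number. Of the members, Ifi206, Ifi208 and Ifi214 kept their calls at an adjusted p under 0.05 in all 14 other fits, Ifi207 in the 13 that tested it and Aim2 in 13 of 14, and all of them with the block. On scaling to T lineage markers, genes called at an adjusted p went from 4907 to 8472, and to 2951 at a mean FPKM of at least 5. By the rule of the study they went from 4752 to 7995 and 2562, and to 627 with a log2 fold change over 1 in size. Members called went from 8 to 5 at an adjusted p and to 4 by the rule of the study on the T lineage scale, and to 1 (Ifi207) with a log2 fold change over 1 in size. On the T lineage scale 3 other Ifi200 genes, 16 of cytosolic DNA sensing and 10 other interferon-induced genes were called, and the inflammasome list had 5 at a mean FPKM of at least 5. The log2 difference of the summed members turned from 0.36 to -0.11, and those of Ifi203, Ifi204, Ifi209, Mndal and Ifi211 to -0.304, -0.156, -0.147, -0.0315 and -0.221. The cause of these shifts was not tested. Without Lyz2 in the macrophage sum, the ratio of Ifi207 per marker sum turned from 0.673 to 1.43 and that of Ifi202b from 0.99 to 2.10. With 1 sample left out, 3669 to 5152 genes were called, or 4509 to 5030 by the rule of the study. Members called ranged from 5 (without MWA+PBS 1 or MWA+2DG 6) to 9 (without MWA+PBS 2, as with arrayWeights), or from 6 to 8 by that rule. The other Ifi200 genes ranged from 1 to 2 (Ifi211 was added without MWA+2DG 5), and the fold change of Ifi203-ps from -0.0574 to 0.0349. Ifi204 and Ifi209 also lost their calls with no filter (adjusted p = 0.0656 and 0.0856), and Ifi209 without the trend (0.0525). The depth is unknown, so no limit of detection is given.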

Other observations

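Outside the family, 6 promoters held the letters GAAATCGAAA within 250 bases before the start: Adcyap1, Gm26797, Gm31431, Parp11, Pnrc1 and Serpinb6a, of which 4 were listed by symbol and 3 were tested. Parp11, an ADP-ribosyltransferase, was 5.63, 6.29 and 5.92 FPKM in MWA+PBS and 8.35, 8.89 and 9.50 in MWA+2DG (log2 fold change 0.51 ± 0.07, limma adjusted p = 0.00108). Pnrc1, a nuclear receptor coactivator, was 55.1, 53.4 and 54.5 FPKM and 41.0, 41.5 and 41.0 FPKM (-0.39 ± 0.05, adjusted p = 0.000487). Serpinb6a, a protease inhibitor, was 9.97, 10.2 and 8.56 FPKM and 3.88, 3.20 and 3.84 FPKM (-1.19 ± 0.09, adjusted p = 7.04e-05). These genes were named after the sequences had been read. As in the family, where Ifi207 fell and Ifi206, Ifi208 and Ifi214 rose, holding these letters did not go with 1 direction.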
